A study of Mus musculus with 78 samples.

Results

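Mouse livers were compared at 78 weeks between animals that drank dichloroacetic acid (DCA) without a break and animals that had stopped drinking it 21 weeks earlier. The members are the libraries whose labels give 78 weeks of DCA (Direct-78) or 57 weeks of DCA followed by 21 weeks of plain drinking water (S3-78), as far as the authors kept them in their table of normalized values. That gives 7 libraries, 3 of Direct-78 and 4 of S3-78, of the 12 labelled for these groups and of 78 in the series. All 12 animals were male B6C3F1 mice, 4 weeks old when exposure began, and DCA was given at 3.5 g/L in the drinking water. Each library is the liver of 1 mouse from an archive of formalin-fixed, paraffin-embedded tissue. Expression was measured with TempO-Seq, in which pairs of probes are ligated on their target transcript and sequenced, on a panel of 2755 genes with probes for very abundant transcripts attenuated. Results are therefore comparisons between groups. The most abundant member of a list is the one with the highest level on this panel, which need not be the most abundant transcript. The question was which genes differed when late exposure was withdrawn rather than continued, with no control group in the comparison. Levels are raw counts scaled to CPM, counts relative to the library's total, with TMM factors, and are given in the order of mice 64, 65 and 66 for Direct-78 and mice 55, 56, 59 and 60 for S3-78.

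DCA is a by-product of water disinfection that inhibits pyruvate dehydrogenase kinases, which lets pyruvate enter mitochondrial oxidation. It is also known in rodents as a weak peroxisome proliferator, a class of compounds that act through the nuclear receptor PPARA, which switches on genes of peroxisomal and mitochondrial fatty acid oxidation in hepatocytes. Hepatocytes also make most plasma proteins, among them complement, clotting and acute phase proteins, while resident macrophages (Kupffer cells) and lymphocytes carry much of the liver's immune signalling.

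Direct-78 libraries were shallower than S3-78 libraries. Total counts were 699825, 541245 and 671116 in Direct-78 and 1426561, 1936370, 1292750 and 1154431 in S3-78, and 2095, 1750 and 2059 genes against 2215, 2329, 2464 and 2486 genes had at least 1 count. Neither measure overlapped between the groups (exact permutation test of the difference in means, 2-sided, p = 0.0571 for each, the smallest that 3 against 4 libraries allows), so depth and group cannot be told apart. Counts of 3, the limit that a count of 0 allows, correspond to 4.29, 5.54 and 4.47 CPM of the unscaled totals in Direct-78 and 2.10, 1.55, 2.32 and 2.60 CPM in S3-78, and such limits and intervals cover counting error only. Mouse 66 stood apart: the major urinary protein gene MUP8 took 22.97% of its counts, and its squared Spearman correlation with the mean library was 0.641, the lowest of the 7. MUP8 took 12.7% of the counts of S3-78 mouse 60, and the top gene of each of the other 5 libraries took at most 6.42%. Spearman correlations of pairs of libraries ran from 0.756 to 0.860 within Direct-78, from 0.790 to 0.920 within S3-78 and from 0.751 to 0.887 between the groups.

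**Figure D1:**
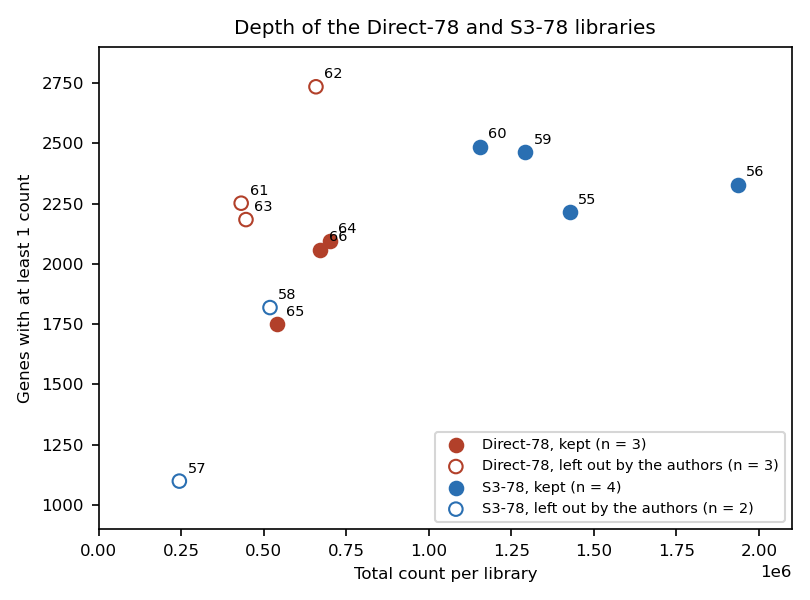
Total count (horizontal axis) and genes with at least 1 count (vertical axis) of each of the 12 libraries labelled Direct-78 or S3-78, with the authors' left-out libraries as open circles and mouse numbers beside the points. The 3 kept Direct-78 libraries lie at 541245 to 699825 counts and the 4 kept S3-78 libraries at 1154431 to 1936370.

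More genes were called lower than higher in Direct-78. Of 2205 genes tested, 111 (5.03%) had an adjusted p no higher than 0.05 together with a fold change beyond 1.5 (edgeR quasi-likelihood test, Benjamini-Hochberg), 8 of them higher (0.363%) and 103 lower (4.67%) in Direct-78 than in S3-78. At an unadjusted p under 0.05 there were 81 higher and 388 lower genes. The higher genes included ACADM, CYCS, FABP2, GPM6B, ME1, MRPS17 and USP14. Among the 103 lower genes, 40 had no count in any kept Direct-78 library, 49 had a mean under 30 CPM in S3-78, and 54 had a mean of 30 CPM or more. Against a floor of 3 counts over the group, the 40 genes without a count were at least 3.69-fold to 37.3-fold lower, the highest of these bounds being that of LTB, 10.1-fold without mouse 59. Values of the groups did not overlap for 5 of the 8 higher and 73 of the 103 lower genes, where over all genes tested 54 (2.45%) were higher and 178 (8.07%) lower without overlap. The median log2 fold change of all genes was -0.27 with TMM factors and -0.08 with RLE or upper-quartile factors, fold changes are therefore given also relative to the -0.27, and with all 78 libraries the median turned to 0.12. Values were below 0 in 1352 of the 2205 genes (61.3%) with TMM, in 53.5% with RLE and in 53.4% with upper-quartile factors, the shares beside which the counts of each list stand. RLE factors gave 95 genes, 18 higher and 77 lower, and upper-quartile factors 103 genes, 18 higher and 85 lower.

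The number of genes past the threshold changed with the fit. With 13 groups and 68 libraries in 1 edgeR fit the biological coefficient of variation was 0.635, and with the 7 libraries alone it was 0.784, with 55 and 5 residual degrees of freedom. The median SD of log2 CPM was 0.913 in Direct-78 and 0.821 in S3-78. Over the groups it ran from 0.334 (10 weeks of DCA, 22 of water) to 1.07 (32 weeks of DCA, 46 of water). Reported SE and adjusted p use the spread shared by all 13 groups, which was smaller than that of the 7 libraries alone. The edgeR fit of the 7 libraries alone called 0 genes, with 205 at an unadjusted p under 0.05 and a smallest adjusted p of 0.371 (quasi-likelihood test, Benjamini-Hochberg), so no gene named here passed in that fit. An edgeR fit of all 78 libraries, including those the authors left out, also called 0 genes, with 240 at an unadjusted p under 0.05 and a smallest Benjamini-Hochberg adjusted p of 0.0805. DESeq2 called 174 genes, 38 higher and 136 lower, and limma's voom with sample weights 178, 35 higher and 143 lower, of which 55 were among the 111. In edgeR, log2 total count as a covariate gave 31 genes, 5 higher and 26 lower, of which 23 were among the 111. Thinning every library to the smallest total left 64, 5 higher and 59 lower. A covariate for detected genes gave 110 genes, 18 higher and 92 lower, of which 68 were among the 111. Restricting the test to genes with a mean of 30 CPM or more over the 7 libraries, an alternative chosen after seeing the data, gave 47 genes, 17 higher and 30 lower. Leaving out S3-78 mouse 55, 56 or 59 gave 58, 73 or 185 genes, and leaving out Direct-78 mouse 64, 65 or 66 gave 67, 173 or 69. Alternatives for single genes are these settings in edgeR, DESeq2 and limma, and named genes without a call passed in none unless passes are given. DESeq2 with and without independent filtering gave 174 genes each and counts as 2 alternatives, so a pass in DESeq2 counts as 2. The 2 passes given for FABP1 and for HADHA are of this kind.

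**Figure D2:**
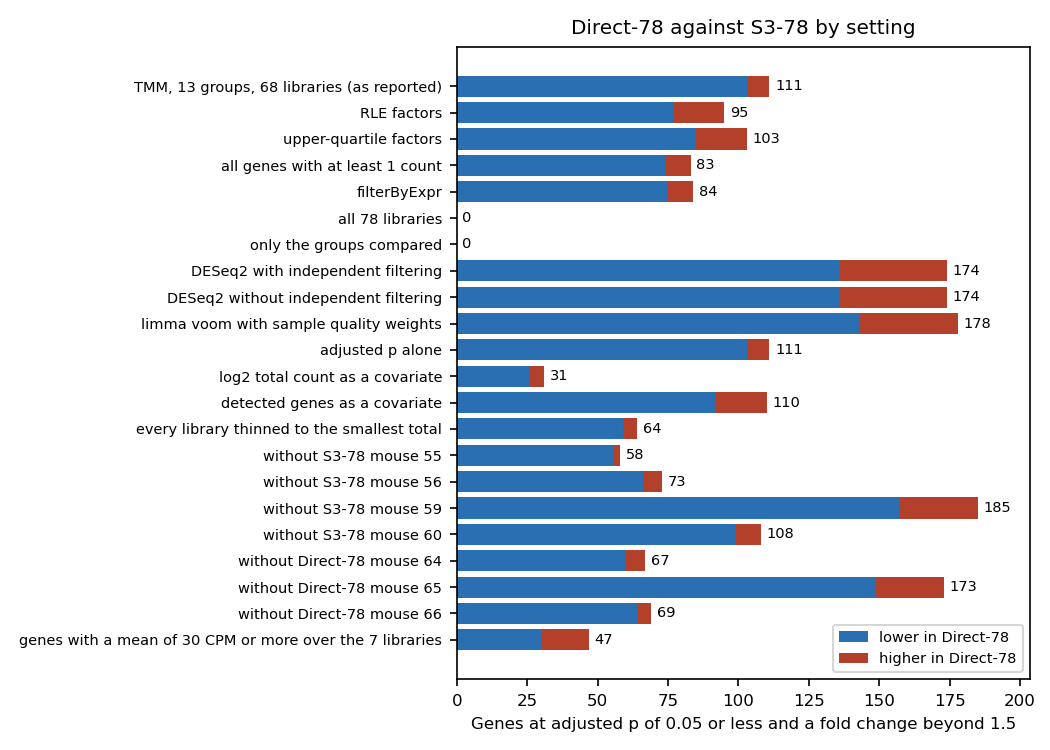
Genes past the threshold in Direct-78 against S3-78 (horizontal axis) under each processing alternative (vertical axis), lower genes in blue and higher genes in red, with the total at the end of each bar. Totals run from 0, with the 7 libraries alone or all 78 libraries in the edgeR fit, to 185 without mouse 59, beside the reported 111.

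Direct-78 and S3-78 stand for the kept libraries unless left-out mice are named, whose values are CPM with TMM factors over all 78 libraries. The authors left out S3-78 mice 57 and 58 and Direct-78 mice 61, 62 and 63, whose total counts ran from 244409 to 658155. MUP8 was the top gene of each of these libraries. It took 57.5% and 47.4% of the counts of mice 57 and 58, and 12.7%, 28.98% and 8.87% of those of mice 61, 62 and 63. Mice 57 and 58 were above every kept S3-78 library in 6 and 5 of the 7 higher genes with a mean of 30 CPM or more, and left-out Direct-78 mice 61, 62 and 63 in 4, 3 and 6. Mice 57 and 58 were below every kept S3-78 library in 52 and 48 of the 54 lower genes with that level, mice 61, 62 and 63 in 36, 36 and 38, and the kept Direct-78 mice 64, 65 and 66 in 40, 40 and 45. The 49 lower genes under 30 CPM differed: mice 61, 62 and 63 were below every kept S3-78 library in 15, 2 and 18 and at or above the mean of the kept S3-78 libraries in 25, 41 and 18. Left-out S3-78 mice 57 and 58 were below every kept S3-78 library in 33 and 28 of the 49, and at or above that mean in 10 and 13. All 40 lower genes without a count in kept Direct-78 libraries had one in at least 1 of mice 61, 62 and 63, and 19 had one in all 3. Absence from all of Direct-78 thus holds for the kept libraries only. Mice 61, 62 and 63 had a count in 27, 40 and 24 of the 40 genes, and left-out S3-78 mice 57 and 58 in 9 and 16. The genes were called on the kept libraries, so these counts describe the libraries and test nothing. For ME1, called higher in Direct-78, mice 57 and 58 were at 38.9 and 17.97 CPM, below the 165 to 395 CPM of the kept S3-78 libraries. Left-out Direct-78 mice 61 and 62 were also below that range, at 84.1 and 45.1 CPM, and mouse 63 was within it at 183 CPM. Among the kept S3-78 libraries, mouse 59 was below the other 3 in 37 of the 54 genes, while mice 55, 56 and 60 were lowest in 8, 1 and 8. The part that the share taken by MUP8 has in the differences was not tested.

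More genes of fatty acid oxidation had higher than lower values under continued DCA, and with TMM factors 1 passed the threshold in each direction. Of 25 genes on the panel from a list of PPARA targets and fatty acid oxidation 24 were tested: 1 was higher past the threshold (ACADM), 1 lower (CPT1B), and 14 had values above 0 and 10 below. Without overlap 4 were higher and 1 lower, beside 2.45% higher and 8.07% lower over all genes. With RLE or upper-quartile factors 17 of the 24 were above 0, and the calls were 3 higher and 0 lower with RLE and 3 higher and 1 lower with upper-quartile factors. The median of the list was 0.45, or 0.72 relative to all genes, beside -0.27 for all genes. ACADM, the medium-chain acyl-CoA dehydrogenase of mitochondrial beta-oxidation, was at 2737, 2478 and 3547 CPM in Direct-78 and 1155, 1182, 794 and 1090.5 CPM in S3-78. Every Direct-78 library lay above every S3-78 library, with mouse 66 highest and mouse 59 lowest. The ACADM difference was a log2 fold change of 1.47, or 1.73 relative to all genes (SE 0.39, edgeR quasi-likelihood test, Benjamini-Hochberg adjusted p = 0.0188). ACADM lost its edgeR call without mouse 66 (adjusted p = 0.0631), and over 20 alternatives its adjusted p ran from 0.00195 to 0.652. ACADM was at 1352, 618 and 3363 CPM in mice 61, 62 and 63 (log2 fold change with all 78 libraries 0.48). In the left-out S3-78 libraries ACADM was at 3686 CPM in mouse 57 and 2852 CPM in mouse 58 with all 78 libraries scaled together, above every kept S3-78 library. CPT1B, the muscle form of the carnitine palmitoyltransferase that carries fatty acids into mitochondria, had no count in Direct-78 and was at 11.2, 11.6, 0.530 and 3.05 CPM in S3-78, at least 6.07-fold lower, or 3.61-fold without mouse 64 (edgeR quasi-likelihood test, Benjamini-Hochberg adjusted p = 0.0396). CPT1B lost its edgeR call without mice 55 (adjusted p = 0.0790), 56 (0.0786), 64 (0.125), 65 (0.0766) and 66 (0.107), and over 19 alternatives its adjusted p ran from 0.0212 to 0.902. CPT1B was at 0, 20.6 and 0 CPM in mice 61, 62 and 63 (log2 fold change with all 78 libraries -0.36).

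Other genes of the list, chosen after their values were seen, did not pass the adjusted threshold in the reported fit. CYP4A14, a fatty acid omega-hydroxylase that is among the strongest PPARA targets of mouse liver, was at 349, 3003 and 285 CPM in Direct-78 and 27.6, 53.1, 3.18 and 3.81 CPM in S3-78. All Direct-78 values were above all S3-78 values, and mouse 65 was far above mice 64 and 66. The CYP4A14 difference was a log2 fold change of 5.76, or 6.03 relative to all genes (SE 2.24, edgeR quasi-likelihood test, Benjamini-Hochberg adjusted p = 0.111), and it passed in DESeq2 with or without independent filtering (Benjamini-Hochberg adjusted p = 0.0480). With all 78 libraries scaled together, CYP4A14 was at 27.5, 52.5, 38.9, 0, 3.22 and 3.92 CPM in S3-78 mice 55 to 60 and at 0, 16.1, 291, 389, 3218 and 317 CPM in Direct-78 mice 61 to 66, so it was low in all 6 S3-78 libraries and in mice 61 and 62 of Direct-78. ACAA1B, a peroxisomal thiolase, was at 1931, 3703 and 1523 CPM in Direct-78 and 141, 630.3, 317 and 649 CPM in S3-78, again without overlap. The ACAA1B difference was a log2 fold change of 2.46, or 2.72 relative to all genes (SE 1.04, edgeR quasi-likelihood test, Benjamini-Hochberg adjusted p = 0.146), and it passed in 0 of 20 alternatives (smallest Benjamini-Hochberg adjusted p = 0.0613). FABP1, the liver's main fatty acid carrier, was at 24905, 46923 and 13093 CPM in Direct-78 and 8169, 16249, 9533 and 12877 CPM in S3-78, and the S3-78 value of mouse 56 exceeded the Direct-78 value of mouse 66 (log2 fold change 1.27, SE 0.53, edgeR quasi-likelihood test, Benjamini-Hochberg adjusted p = 0.141, passing in 2 of 20 alternatives). ETFB, an electron carrier of beta-oxidation, did not overlap: it was at 1027, 1058 and 1222 CPM in Direct-78 and 706, 689.8, 529 and 682 CPM in S3-78 (log2 fold change 0.76, SE 0.30, edgeR quasi-likelihood test, Benjamini-Hochberg adjusted p = 0.123, passing in 5 of 20 alternatives). ETFB was at 449, 95.6 and 560 CPM in mice 61, 62 and 63, mice 61 and 62 being below every kept S3-78 library. In left-out S3-78 mice 57 and 58 it was at 148 and 439 CPM (log2 fold change with all 78 libraries 0.56). DECR1, a reductase for unsaturated fatty acids, was at 233, 866 and 157 CPM in Direct-78 and 25.02, 171, 133 and 186 CPM in S3-78, with mouse 66 below S3-78 mice 56 and 60 (log2 fold change 1.70, SE 0.57, edgeR quasi-likelihood test, Benjamini-Hochberg adjusted p = 0.0589, passing in 6 of 20 alternatives). HADHA, the trifunctional protein's alpha subunit, overlapped between the groups and was at 640.4, 1097 and 423 CPM in Direct-78 and 149, 390.02, 461 and 440.2 CPM in S3-78 (log2 fold change 1.001, SE 0.40, edgeR quasi-likelihood test, Benjamini-Hochberg adjusted p = 0.126, passing in 2 of 20 alternatives). In each of these 6 genes but ETFB mouse 65 was the highest Direct-78 library.

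FABP2, a fatty acid binding protein best known from the intestine, had the largest rise among the called genes with counts in both groups. It was at 2838, 1789.5 and 4582 CPM in Direct-78 and 148, 320.2, 1125 and 319.8 CPM in S3-78. All Direct-78 libraries lay above all S3-78 libraries, among which mouse 59 was highest. The FABP2 difference was a log2 fold change of 2.68, or 2.95 relative to all genes (SE 0.62, edgeR quasi-likelihood test, Benjamini-Hochberg adjusted p = 0.00701). FABP2 kept its edgeR call with each of the 7 libraries left out in turn, and over 20 alternatives its adjusted p ran from 9.64e-04 to 0.371. FABP2 was at 529.9, 489 and 1818 CPM in mice 61, 62 and 63 (log2 fold change with all 78 libraries 1.77). Left-out S3-78 mouse 57 was at 1425 CPM and mouse 58 at 462 CPM with all 78 libraries scaled together. ME1, the cytosolic malic enzyme that supplies NADPH for fatty acid synthesis, was at 775, 2369.8 and 279.7 CPM in Direct-78 and 165, 370.5, 244 and 385 CPM in S3-78. The rise was carried by mice 64 and 65, and mouse 66 lay among the S3-78 values. The ME1 difference was a log2 fold change of 1.97, or 2.24 relative to all genes (SE 0.56, edgeR quasi-likelihood test, Benjamini-Hochberg adjusted p = 0.0264). ME1 lost its edgeR call without mice 55 (adjusted p = 0.0916) and 65 (0.269), and over 20 alternatives its adjusted p ran from 0.00488 to 0.445. ME1 was at 84.1, 45.1 and 183 CPM in mice 61, 62 and 63 (log2 fold change with all 78 libraries 1.70). On the fatty acid synthesis list 6 genes were tested, 1 was past the threshold (ME1), 5 had values above 0, and the median was 0.70, or 0.97 relative to all genes.

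Respiratory chain genes leaned the same way. Of 22 oxidative phosphorylation genes tested, 17 were above 0 and 5 below, 5 were higher and 0 lower without overlap, and 1 was past the threshold, CYCS, with 2 calls under RLE and 3 under upper-quartile factors. The median was 0.66, or 0.92 relative to all genes. CYCS, cytochrome c, the mobile electron carrier of the respiratory chain, was at 487, 336 and 420.3 CPM in Direct-78 and 99.6, 109, 231 and 142 CPM in S3-78. No S3-78 library reached the lowest Direct-78 library, and mouse 59 was the highest of S3-78. The CYCS difference was a log2 fold change of 1.51, or 1.78 relative to all genes (SE 0.40, edgeR quasi-likelihood test, Benjamini-Hochberg adjusted p = 0.0194). CYCS lost its edgeR call without mice 55 (adjusted p = 0.0643), 56 (0.0609) and 64 (0.0696), and over 20 alternatives its adjusted p ran from 0.00516 to 0.617. CYCS was at 381, 319.5 and 576 CPM in mice 61, 62 and 63 (log2 fold change with all 78 libraries 0.56). NDUFA9, of complex I, chosen after its values were seen, was at 879, 541 and 909 CPM in Direct-78 and 307, 433, 481 and 468 CPM in S3-78, without overlap (log2 fold change 0.88, SE 0.33, edgeR quasi-likelihood test, Benjamini-Hochberg adjusted p = 0.0969, passing in 7 of 20 alternatives). NDUFA9 was at 515, 294 and 1008 CPM in mice 61, 62 and 63 (log2 fold change with all 78 libraries 0.36). Left-out S3-78 mice 57 and 58 were at 662 and 1060 CPM, above every kept S3-78 library. MRPS17, a protein of the mitochondrial ribosome chosen after its values were seen as 1 of the 8 higher genes, was at 264, 166 and 341 CPM in Direct-78 and 46.5, 111, 189.7 and 123 CPM in S3-78, with mouse 59 above mouse 65. The MRPS17 difference was a log2 fold change of 1.13, or 1.397 relative to all genes (SE 0.33, edgeR quasi-likelihood test, Benjamini-Hochberg adjusted p = 0.0312). MRPS17 lost its edgeR call without mice 55 (adjusted p = 0.135), 56 (0.0733), 64 (0.0806) and 66 (0.178), and over 20 alternatives its adjusted p ran from 0.00674 to 0.595. MRPS17 was at 243, 107 and 315 CPM in mice 61, 62 and 63 (log2 fold change with all 78 libraries 0.49).

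Of 15 genes tested on the list of glycolysis, gluconeogenesis and glycogen 1 passed, 8 values were above 0 and 7 below, and the median was 0.10, or 0.37 relative to all genes. The list of pyruvate dehydrogenase and the TCA cycle, where DCA's kinase targets act, had 10 genes tested, 0 past the edgeR threshold, 3 values above 0 and 7 below, and a median of -0.36, or -0.09 relative to all genes. USP14, a deubiquitinase of the proteasome, was at 71.2, 70.2 and 111 CPM in Direct-78 and 9.70, 20.8, 40.3 and 21.3 CPM in S3-78. No S3-78 value reached the Direct-78 values. The USP14 difference was a log2 fold change of 1.87, or 2.13 relative to all genes (SE 0.48, edgeR quasi-likelihood test, Benjamini-Hochberg adjusted p = 0.0163). USP14 lost its edgeR call without mice 55 (adjusted p = 0.0632) and 66 (0.0658), and over 20 alternatives its adjusted p ran from 0.00350 to 0.445. GPM6B, a membrane proteolipid chosen after its values were seen, had no count in S3-78 and 12 counts in Direct-78, all in mouse 66, so its call rested on that library (edgeR quasi-likelihood test, Benjamini-Hochberg adjusted p = 0.0239). GPM6B lost its edgeR call without mice 55 (adjusted p = 0.0624), 56 (0.0568) and 66 (1.00), and over 19 alternatives its adjusted p ran from 0.00742 to 1.00. GPM6B was at 0, 16.8 and 0 CPM in mice 61, 62 and 63 (log2 fold change with all 78 libraries 1.43). Left-out S3-78 mice 57 and 58 were at 0 and 17.97 CPM of GPM6B.

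**Figure D3:**
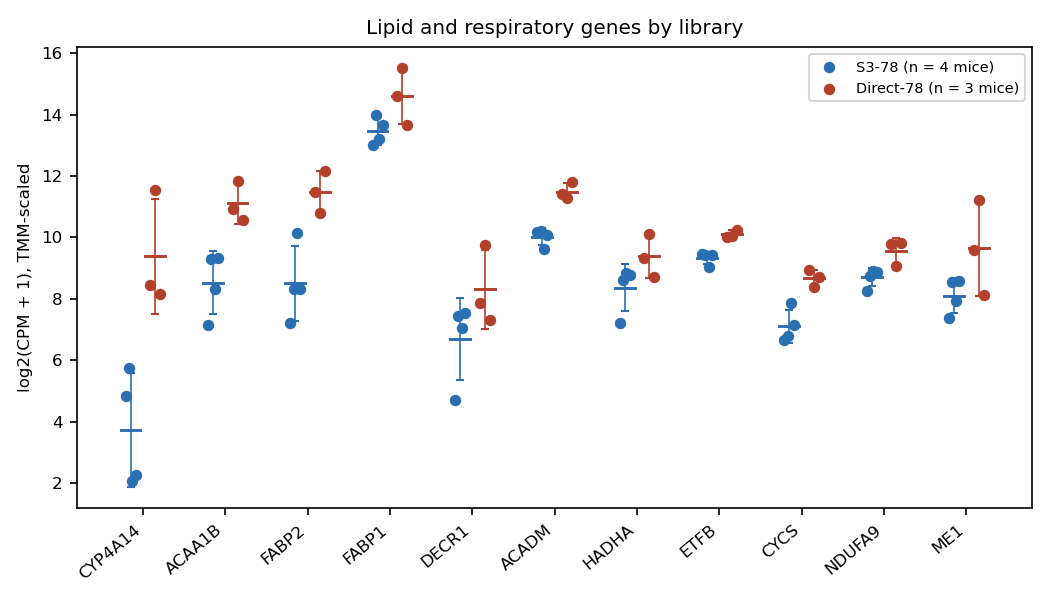
Log2 of CPM plus 1 (vertical axis) of 11 genes of lipid metabolism and respiration in each S3-78 library (blue, n = 4) and Direct-78 library (red, n = 3), with the mean as a bar and 1 SD as error. CYP4A14, ACAA1B, FABP2, ACADM, ETFB, CYCS and NDUFA9 do not overlap between the groups, and of these FABP2, ACADM and CYCS passed the threshold.

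LRG1, a secreted leucine-rich glycoprotein of the acute phase, was at 222, 472 and 109 CPM in Direct-78 and 5068, 1517, 760.5 and 3504 CPM in S3-78. No Direct-78 library reached the lowest S3-78 library, mouse 59. The LRG1 difference was a log2 fold change of -3.34, or -3.07 relative to all genes (SE 0.86, edgeR quasi-likelihood test, Benjamini-Hochberg adjusted p = 0.0172). LRG1 lost its edgeR call without mice 55 (adjusted p = 0.0561), 64 (0.0665) and 66 (0.0823), and over 20 alternatives its adjusted p ran from 0.00180 to 0.371. Left-out S3-78 mice 57 and 58 had 58.4 and 74.5 CPM, below every kept S3-78 library. ITIH1, a heavy chain of the inter-alpha-trypsin inhibitor, was at 55.3, 83.7 and 14.9 CPM in Direct-78 and 661, 765, 174 and 204 CPM in S3-78. ITIH1 values also did not overlap, and mice 59 and 60 were the lower ones of S3-78. The ITIH1 difference was a log2 fold change of -3.14, or -2.87 relative to all genes (SE 0.82, edgeR quasi-likelihood test, Benjamini-Hochberg adjusted p = 0.0172). ITIH1 lost its edgeR call without mice 64 (adjusted p = 0.0576) and 66 (0.0867), and over 20 alternatives its adjusted p ran from 0.00219 to 0.633. On the acute phase list 18 genes were tested, 0 were higher and 1 lower past the threshold (IL1R1), 17 of 18 values were below 0, and the median was -1.08, or -0.81 relative to all genes. SAA1, serum amyloid A, chosen after its values were seen, was at 123, 117 and 98.6 CPM in Direct-78 and 1009, 419.6, 991 and 36110 CPM in S3-78, without overlap but with mouse 60 far above all others (log2 fold change -6.41, SE 2.13, edgeR quasi-likelihood test, Benjamini-Hochberg adjusted p = 0.0583, passing in 3 of 20 alternatives).

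Complement genes gave 3 calls with TMM factors, all lower, among 15 tested, while RLE gave 1 higher and 2 lower and upper-quartile factors 1 higher and 3 lower. Values were below 0 in 13 of the 15 with TMM and in 11 with RLE or upper-quartile factors, and the median was -0.90, or -0.63 relative to all genes. HC, the mouse gene for complement C5, was at 363, 578 and 295 CPM in Direct-78 and 2895, 1991, 731 and 1684 CPM in S3-78. HC did not overlap between the kept libraries of the groups, and mouse 59 was nearest to Direct-78. Left-out S3-78 mice 57 and 58 were at 54.5 and 298 CPM of HC. Both were below the lowest kept Direct-78 library, mouse 66, at 328 CPM with all 78 libraries scaled together. HC was at 299, 138 and 240 CPM in mice 61, 62 and 63 (log2 fold change with all 78 libraries -1.92). The HC difference was a log2 fold change of -2.15, or -1.88 relative to all genes (SE 0.64, edgeR quasi-likelihood test, Benjamini-Hochberg adjusted p = 0.0339). HC lost its edgeR call without mice 55 (adjusted p = 0.104), 56 (0.0572), 64 (0.115) and 66 (0.136), and over 20 alternatives its adjusted p ran from 0.0113 to 0.532. C8A, a chain of the membrane attack complex, was at 37.6, 17.5 and 68.9 CPM in Direct-78 and 39.3, 244, 165 and 405 CPM in S3-78, with mouse 55 below mouse 66. The C8A difference was a log2 fold change of -2.37, or -2.10 relative to all genes (SE 0.53, edgeR quasi-likelihood test, Benjamini-Hochberg adjusted p = 0.00562). C8A kept its edgeR call with each of the 7 libraries left out in turn, and over 20 alternatives its adjusted p ran from 0.00102 to 0.480. C8A was at 42.03, 70.3 and 111 CPM in mice 61, 62 and 63 (log2 fold change with all 78 libraries -1.42). C3, the hub of all complement pathways, chosen after its values were seen, was at 1615, 2159 and 1177 CPM in Direct-78 and 9633, 7439, 1474 and 5153 CPM in S3-78, and mouse 59 fell within the Direct-78 range. The C3 difference was a log2 fold change of -1.84, or -1.58 relative to all genes (SE 0.57, edgeR quasi-likelihood test, Benjamini-Hochberg adjusted p = 0.0409). C3 lost its edgeR call without mice 55 (adjusted p = 0.134), 56 (0.0898), 64 (0.118), 65 (0.0536) and 66 (0.156), and over 20 alternatives its adjusted p ran from 0.0145 to 0.471. In left-out S3-78 mice 57 and 58 C3 was at 3.89 and 254 CPM, below every kept Direct-78 library. It was at 1360, 91.0 and 559 CPM in mice 61, 62 and 63 (log2 fold change with all 78 libraries -1.69). MBL2, a lectin that starts complement, lay the other way without overlap and was also chosen after its values were seen: it was at 133, 107 and 288 CPM in Direct-78 and 62.8, 93.0, 52.99 and 82.2 CPM in S3-78 (log2 fold change 1.27, SE 0.46, edgeR quasi-likelihood test, Benjamini-Hochberg adjusted p = 0.0803, passing in 6 of 20 alternatives). C9, the pore-forming component, was at 2783, 1923 and 5018 CPM in Direct-78 and 485, 3573, 4512 and 5429 CPM in S3-78, with mouse 55 far below the rest and a sign of change that turned with the scaling, from -0.11 with TMM to 0.13 with RLE and 0.16 with upper-quartile factors (log2 fold change -0.11, SE 0.83, edgeR quasi-likelihood test, Benjamini-Hochberg adjusted p = 0.960).

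Of 18 coagulation and fibrinolysis genes 1 was past the threshold, F11, 15 values were below 0 with TMM, 13 with RLE and 14 with upper-quartile factors, and the median was -0.71, or -0.45 relative to all genes. F11, clotting factor XI, was at 209, 208 and 111 CPM in Direct-78 and 1018, 752, 289.9 and 387 CPM in S3-78. Its kept libraries did not overlap between the groups. In left-out S3-78 mice 57 and 58 F11 was at 54.5 and 43.6 CPM, below every kept Direct-78 library. It was at 58.5, 58.1 and 12.0 CPM in mice 61, 62 and 63 (log2 fold change with all 78 libraries -1.85). The F11 difference was a log2 fold change of -1.80, or -1.53 relative to all genes (SE 0.53, edgeR quasi-likelihood test, Benjamini-Hochberg adjusted p = 0.0339). F11 lost its edgeR call without mice 55 (adjusted p = 0.129), 56 (0.0773), 64 (0.0749), 65 (0.0585) and 66 (0.152), and over 20 alternatives its adjusted p ran from 0.0160 to 0.445. CLU, clusterin, a secreted chaperone, chosen after its values were seen, was at 6865, 5633 and 6601 CPM in Direct-78 and 11948, 13485, 34962 and 14642 CPM in S3-78. Every kept Direct-78 value was below every kept S3-78 value, and mouse 59 was far above the other libraries. In left-out S3-78 mice 57 and 58 CLU was at 58.4 and 2840 CPM, below every kept Direct-78 library. It was at 5560, 1033 and 4672 CPM in mice 61, 62 and 63 (log2 fold change with all 78 libraries -1.28). The CLU difference was a log2 fold change of -1.56, or -1.29 relative to all genes (SE 0.38, edgeR quasi-likelihood test, Benjamini-Hochberg adjusted p = 0.0106). CLU lost its edgeR call without mice 59 (adjusted p = 0.0571) and 65 (0.0541), and over 20 alternatives its adjusted p ran from 0.00782 to 0.504.

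**Figure D4:**
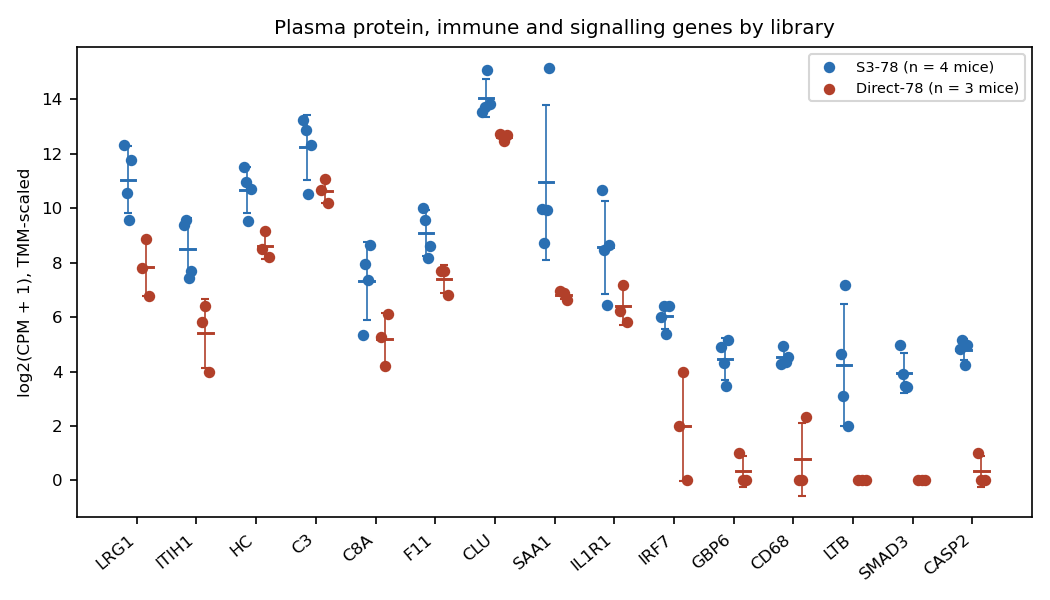
Log2 of CPM plus 1 (vertical axis) of 15 genes of plasma proteins, immune response and signalling in each S3-78 library (blue, n = 4) and Direct-78 library (red, n = 3), with the mean as a bar and 1 SD as error. LTB and SMAD3 have no count in any Direct-78 library, and C3, C8A and IL1R1 overlap between the groups.

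Interferon and cytokine genes had 4 calls on 1 list, all lower. Of 27 genes of the interferon response and antigen presentation 4 were lower past the threshold and 0 higher, 22 values were below 0, 6 were lower without overlap, and the median was -0.999, or -0.73 relative to all genes. IRF7, a master regulator of type I interferon genes, was at 2.96, 14.8 and 0 CPM in Direct-78 and 62.8, 83.03, 40.8 and 84.5 CPM in S3-78, without overlap. The IRF7 difference was a log2 fold change of -3.53, or -3.26 relative to all genes (SE 0.82, edgeR quasi-likelihood test, Benjamini-Hochberg adjusted p = 0.00812). IRF7 lost its edgeR call without mouse 66 (adjusted p = 0.0509), and over 20 alternatives its adjusted p ran from 0.00171 to 0.397. IRF7 was at 0, 28.3 and 46.3 CPM in mice 61, 62 and 63 (log2 fold change with all 78 libraries -1.59). GBP6, a guanylate-binding protein induced by interferon gamma, had 1 count over Direct-78 and was at 29.1, 18.8, 10.1 and 35.03 CPM in S3-78, a pooled ratio of S3-78 to Direct-78 of 54.98 with a 95% counting interval of 9.73 to 2184 (edgeR quasi-likelihood test, Benjamini-Hochberg adjusted p = 0.0148). GBP6 lost its edgeR call without mouse 66 (adjusted p = 0.0631), and over 19 alternatives its adjusted p ran from 0.00798 to 0.870. GBP6 was at 18.01, 91.0 and 49.7 CPM in mice 61, 62 and 63 (log2 fold change with all 78 libraries 0.43). MX1, an antiviral GTPase chosen after its values were seen, had no count in Direct-78 and was at 0, 5.99, 18.02 and 10.7 CPM in S3-78, at least 6.83-fold lower, or 4.17-fold without mouse 59, or 4.06-fold without mouse 64 (edgeR quasi-likelihood test, Benjamini-Hochberg adjusted p = 0.0238), and mouse 55 was at 0 as well. MX1 lost its edgeR call without mice 64 (adjusted p = 0.0894), 65 (0.0527) and 66 (0.0751), and over 19 alternatives its adjusted p ran from 0.0142 to 0.876. MX1 was at 42.03, 37.5 and 0 CPM in mice 61, 62 and 63 (log2 fold change with all 78 libraries -0.44). IL1R1, the interleukin-1 receptor, was at 73.1, 146 and 55.4 CPM in Direct-78 and 1626, 350.1, 86.9 and 404 CPM in S3-78, with mouse 55 highest and mouse 59 within the Direct-78 range. The IL1R1 difference was a log2 fold change of -2.76, or -2.49 relative to all genes (SE 0.83, edgeR quasi-likelihood test, Benjamini-Hochberg adjusted p = 0.0356). IL1R1 lost its edgeR call without mice 55 (adjusted p = 0.269), 64 (0.122) and 66 (0.143), and over 20 alternatives its adjusted p ran from 0.00986 to 0.445.

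Signalling genes with low levels gave some of the smallest adjusted p. CASP2, an initiator caspase, had 1 count over the 3 Direct-78 libraries and was at 27.6, 34.7, 18.02 and 30.5 CPM in S3-78, a pooled ratio of S3-78 to Direct-78 of 69.9 with a 95% counting interval of 12.4 to 2775 (edgeR quasi-likelihood test, Benjamini-Hochberg adjusted p = 7.22e-05). CASP2 kept its edgeR call with each of the 7 libraries left out in turn, and over 19 alternatives its adjusted p ran from 6.60e-05 to 0.371. CASP2 was at 9.01, 12.2 and 0 CPM in mice 61, 62 and 63 (log2 fold change with all 78 libraries -2.52). On the list of p53 targets and apoptosis CASP2 was the 1 call among 24 tested, 18 values were below 0 with TMM, 16 with RLE and 15 with upper-quartile factors, and the median was -0.77, or -0.50 relative to all genes. SMAD3, a transcription factor of TGF-beta signalling, had no count in Direct-78 and was at 30.6, 14.0, 10.1 and 9.90 CPM in S3-78, at least 13.8-fold lower, or 8.18-fold without mouse 64 (edgeR quasi-likelihood test, Benjamini-Hochberg adjusted p = 7.89e-04). SMAD3 kept its edgeR call with each of the 7 libraries left out in turn, and over 19 alternatives its adjusted p ran from 7.38e-04 to 0.732. SMAD3 was at 9.01, 29.05 and 22.3 CPM in mice 61, 62 and 63 (log2 fold change with all 78 libraries -0.73). SMAD5, which carries BMP signals, was at 105, 74.2 and 72.97 CPM in Direct-78 and 322, 244, 82.1 and 163 CPM in S3-78, with mouse 59 among the Direct-78 values. The SMAD5 difference was a log2 fold change of -1.27, or -1.003 relative to all genes (SE 0.36, edgeR quasi-likelihood test, Benjamini-Hochberg adjusted p = 0.0264). SMAD5 lost its edgeR call without mice 55 (adjusted p = 0.133), 56 (0.0733), 65 (0.0858) and 66 (0.101), and over 20 alternatives its adjusted p ran from 0.00558 to 0.666. SMAD5 was at 143, 108 and 94.3 CPM in mice 61, 62 and 63 (log2 fold change with all 78 libraries -0.54). TGFBR1, a TGF-beta receptor chosen after its values were seen, was at 33.6, 71.5 and 44.6 CPM in Direct-78 and 122, 93.0, 133 and 79.96 CPM in S3-78, with every Direct-78 library below every S3-78 library. The TGFBR1 difference was a log2 fold change of -1.10, or -0.84 relative to all genes (SE 0.33, edgeR quasi-likelihood test, Benjamini-Hochberg adjusted p = 0.0340). TGFBR1 lost its edgeR call without mice 55 (adjusted p = 0.0783), 56 (0.0556), 59 (0.0616), 64 (0.177) and 66 (0.136), and over 20 alternatives its adjusted p ran from 0.0249 to 0.647. TGFBR1 was at 9.01, 35.2 and 87.4 CPM in mice 61, 62 and 63 (log2 fold change with all 78 libraries -0.59). Of 21 genes of TGF-beta signalling and matrix remodelling these 3 were lower and 0 higher past the threshold, 13 values were below 0, a share near that of all genes, and the median was -0.82, or -0.56 relative to all genes, while RLE factors left 1 call and upper-quartile factors 2. FN1, the matrix glycoprotein fibronectin, also chosen after its values were seen, was at 2487, 3682 and 1691 CPM in Direct-78 and 6751, 6154, 3873 and 4887 CPM in S3-78, without overlap (log2 fold change -1.05, SE 0.38, edgeR quasi-likelihood test, Benjamini-Hochberg adjusted p = 0.0792, passing in 2 of 20 alternatives).

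NOTCH2, a receptor of the Notch pathway, was at 18.8, 28.3 and 0 CPM in Direct-78 and 174, 133, 47.7 and 108 CPM in S3-78. Each Direct-78 library was below each S3-78 library. The NOTCH2 difference was a log2 fold change of -2.87, or -2.61 relative to all genes (SE 0.59, edgeR quasi-likelihood test, Benjamini-Hochberg adjusted p = 0.00284). NOTCH2 kept its edgeR call with each of the 7 libraries left out in turn, and over 20 alternatives its adjusted p ran from 6.91e-05 to 0.455. NOTCH2 was at 16.5, 19.9 and 71.98 CPM in mice 61, 62 and 63 (log2 fold change with all 78 libraries -1.72). Of 20 genes of insulin and growth hormone signalling 1 was past the threshold with TMM and 0 with RLE or upper-quartile factors in edgeR, and 14 were below 0, with a median of -0.39, or -0.12 relative to all genes. IRS1, an adaptor of the insulin receptor, was at 129, 80.97 and 52.7 CPM in Direct-78 and 31.7, 45.5, 66.8 and 79.2 CPM in S3-78, with overlap (log2 fold change 0.66, SE 0.44, edgeR quasi-likelihood test, Benjamini-Hochberg adjusted p = 0.406).

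Further named genes past the threshold in the reported edgeR fit were lower in Direct-78. BBS10, a chaperonin-like protein of cilia, was at 4.94, 0 and 14.9 CPM in Direct-78 and 40.9, 61.5, 32.3 and 40.4 CPM in S3-78. The BBS10 difference was a log2 fold change of -2.73, or -2.47 relative to all genes (SE 0.64, edgeR quasi-likelihood test, Benjamini-Hochberg adjusted p = 0.00812). BBS10 kept its edgeR call with each of the 7 libraries left out in turn, and over 19 alternatives its adjusted p ran from 0.00177 to 0.827. BBS10 was at 49.5, 55.04 and 18.9 CPM in mice 61, 62 and 63 (log2 fold change with all 78 libraries -0.40). STAMBP, an endosomal deubiquitinase, was at 0, 21.6 and 16.2 CPM in Direct-78 and 36.8, 111, 44.5 and 80.7 CPM in S3-78, with no overlap and no count in mouse 64. The STAMBP difference was a log2 fold change of -2.47, or -2.20 relative to all genes (SE 0.54, edgeR quasi-likelihood test, Benjamini-Hochberg adjusted p = 0.00437). STAMBP kept its edgeR call with each of the 7 libraries left out in turn, and over 20 alternatives its adjusted p ran from 6.04e-04 to 0.597. STAMBP was at 64.5, 53.5 and 0 CPM in mice 61, 62 and 63 (log2 fold change with all 78 libraries -0.83). SLC30A7, a zinc transporter of the Golgi, was at 0, 14.8 and 6.76 CPM in Direct-78 and 36.8, 41.1, 34.98 and 33.5 CPM in S3-78, with the S3-78 values close together. The SLC30A7 difference was a log2 fold change of -2.39, or -2.12 relative to all genes (SE 0.63, edgeR quasi-likelihood test, Benjamini-Hochberg adjusted p = 0.0194). SLC30A7 lost its edgeR call without mice 64 (adjusted p = 0.116) and 66 (0.0658), and over 19 alternatives its adjusted p ran from 0.00481 to 0.736. SLC30A7 was at 42.03, 38.98 and 0 CPM in mice 61, 62 and 63 (log2 fold change with all 78 libraries -0.56). CHKA, choline kinase alpha, the first enzyme of phosphatidylcholine synthesis from choline, was at 0, 13.5 and 16.2 CPM in Direct-78 and 54.1, 60.7, 128 and 99.0 CPM in S3-78, without overlap. The CHKA difference was a log2 fold change of -3.15, or -2.88 relative to all genes (SE 0.97, edgeR quasi-likelihood test, Benjamini-Hochberg adjusted p = 0.0409). CHKA lost its edgeR call without mice 55 (adjusted p = 0.0561), 56 (0.0514), 59 (0.0570), 60 (0.0603), 64 (0.170), 65 (0.0599) and 66 (0.0678), and over 20 alternatives its adjusted p ran from 0.0122 to 0.445. ST3GAL1, a sialyltransferase, was at 6.92, 5.398 and 40.5 CPM in Direct-78 and 173, 113, 40.8 and 66.3 CPM in S3-78, where mouse 66 came within 1 CPM of mouse 59. The ST3GAL1 difference was a log2 fold change of -2.49, or -2.23 relative to all genes (SE 0.77, edgeR quasi-likelihood test, Benjamini-Hochberg adjusted p = 0.0429). ST3GAL1 lost its edgeR call without mice 55 (adjusted p = 0.131), 56 (0.0748), 64 (0.175) and 65 (0.140), and over 20 alternatives its adjusted p ran from 0.0103 to 0.488.

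Calls on the remaining lists were single genes or a pair. SLC1A2, a glutamate transporter of pericentral hepatocytes, was at 8.89, 21.6 and 0 CPM in Direct-78 and 261, 51.9, 5.30 and 41.1 CPM in S3-78, with mouse 55 highest and mouse 59 among the Direct-78 values. The SLC1A2 difference was a log2 fold change of -3.14, or -2.88 relative to all genes (SE 0.89, edgeR quasi-likelihood test, Benjamini-Hochberg adjusted p = 0.0257). SLC1A2 lost its edgeR call without mice 55 (adjusted p = 0.277), 64 (0.0946) and 66 (0.130), and over 20 alternatives its adjusted p ran from 0.00458 to 0.504. SLC1A2 was at 19.5, 27.5 and 30.8 CPM in mice 61, 62 and 63 (log2 fold change with all 78 libraries -1.73). It was the 1 call among 9 pericentral genes of WNT and beta-catenin, of which 7 were below 0 with a median of -0.72, or -0.45 relative to all genes. PSMD4, a ubiquitin receptor of the proteasome, was at 27.7, 20.2 and 28.4 CPM in Direct-78 and 233, 98.2, 28.1 and 86.1 CPM in S3-78, and mouse 59 was within the Direct-78 range. The PSMD4 difference was a log2 fold change of -2.13, or -1.86 relative to all genes (SE 0.57, edgeR quasi-likelihood test, Benjamini-Hochberg adjusted p = 0.0195). PSMD4 lost its edgeR call without mice 55 (adjusted p = 0.131), 64 (0.0598), 65 (0.0618) and 66 (0.0545), and over 20 alternatives its adjusted p ran from 0.00505 to 0.484. PSMD6, a lid subunit, had no count in Direct-78 and was at 16.3, 14.4, 0 and 29.7 CPM in S3-78, at least 11.6-fold lower, or 6.89-fold without mouse 64 (edgeR quasi-likelihood test, Benjamini-Hochberg adjusted p = 0.0391). PSMD6 lost its edgeR call without mice 55 (adjusted p = 0.0632), 56 (0.0556), 60 (0.0733), 64 (0.123), 65 (0.0732) and 66 (0.106), and over 19 alternatives its adjusted p ran from 0.00783 to 0.933. PSMD6 was at 31.5, 13.8 and 13.7 CPM in mice 61, 62 and 63 (log2 fold change with all 78 libraries -0.27). Those were the 2 calls among 13 proteasome genes with 9 of 13 values below 0 with TMM and 5 with RLE or upper-quartile factors, and the median was -0.12, or 0.15 relative to all genes. RPS6, a protein of the small ribosomal subunit, was at 210.5, 201 and 146 CPM in Direct-78 and 426, 349, 256 and 284 CPM in S3-78, without overlap. The RPS6 difference was a log2 fold change of -0.82, or -0.56 relative to all genes (SE 0.24, edgeR quasi-likelihood test, Benjamini-Hochberg adjusted p = 0.0288). RPS6 lost its edgeR call without mice 55 (adjusted p = 0.1204), 56 (0.100), 65 (0.0840) and 66 (0.183), and over 20 alternatives its adjusted p ran from 0.0159 to 0.567. Among 20 translation genes it was the single call with TMM, with none under RLE or upper-quartile factors, and there were 10 values above and 10 below 0 and a median of -0.03, or 0.23 relative to all genes. CRYAB, a small heat shock protein, had no count in Direct-78 and was at 9.19, 4.79, 2.65 and 4.57 CPM in S3-78, at least 4.45-fold lower, or 2.64-fold without mouse 64 (edgeR quasi-likelihood test, Benjamini-Hochberg adjusted p = 0.0446). CRYAB lost its edgeR call without mice 55 (adjusted p = 0.0926), 56 (0.0593), 60 (0.0502), 64 (0.134), 65 (0.0799) and 66 (0.1201), and over 19 alternatives its adjusted p ran from 0.0339 to 0.773. CRYAB was at 9.01, 32.1 and 8.57 CPM in mice 61, 62 and 63 (log2 fold change with all 78 libraries 0.75). RLE and upper-quartile factors did not keep its call. CRYAB was the 1 call with TMM factors among 18 heat shock genes tested. With CRYAB included, 12 of the 18 values were below 0 with TMM, 7 with RLE and 8 with upper-quartile factors. The median was -0.13, or 0.14 relative to all genes.

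Markers of immune cells were counted list by list, and in whole tissue fewer cells of a type and less RNA per cell cannot be told apart. Of 9 macrophage and Kupffer cell markers tested 1 was past the threshold, CD68, all 9 values were below 0 with TMM, RLE and upper-quartile factors, 4 did not overlap, and the median was -1.64, or -1.37 relative to all genes. Summed over the list they came to 1138, 852 and 970.3 CPM in Direct-78 and 1633, 2505, 5837 and 1725 CPM in S3-78, so all Direct-78 sums were below all S3-78 sums and mouse 59 was highest. The most abundant member, MPEG1, a pore protein of macrophages, was at 737, 260.5 and 642 CPM in Direct-78 and 1091, 752, 3795 and 874 CPM in S3-78 (log2 fold change -1.57, SE 0.71, edgeR quasi-likelihood test, Benjamini-Hochberg adjusted p = 0.178). MPEG1 was at 1327, 235 and 634 CPM in mice 61, 62 and 63 (log2 fold change with all 78 libraries -0.86). CD68, a lysosomal glycoprotein of macrophages, had 0 counts in mice 64 and 65 and 3 in mouse 66, and was at 18.4, 29.9, 19.6 and 22.08 CPM in S3-78, a pooled ratio of S3-78 to Direct-78 of 19.2 with a 95% counting interval of 6.46 to 94.0 (edgeR quasi-likelihood test, Benjamini-Hochberg adjusted p = 0.0209). CD68 lost its edgeR call without mice 64 (adjusted p = 0.112) and 65 (0.0681), and over 19 alternatives its adjusted p ran from 0.00737 to 0.737. CD68 was at 25.5, 8.41 and 17.1 CPM in mice 61, 62 and 63 (log2 fold change with all 78 libraries -0.81). C1QA, a complement chain that Kupffer cells make, chosen after its values were seen, was at 34.6, 6.75 and 10.8 CPM in Direct-78 and 38.3, 75.4, 39.2 and 41.9 CPM in S3-78 (log2 fold change -1.46, SE 0.95, edgeR quasi-likelihood test, Benjamini-Hochberg adjusted p = 0.392). C1QA was at 33.02, 52.7 and 54.8 CPM in mice 61, 62 and 63 (log2 fold change with all 78 libraries -0.0453). Left-out S3-78 mice 57 and 58 were both at 0 CPM of C1QA. Lymphocyte markers gave 1 call of 12 tested, LTB, with 9 values below 0, a median of -1.06, or -0.80 relative to all genes and sums of 289, 331 and 266 CPM in Direct-78 and 281, 521, 1451 and 299 CPM in S3-78, which overlapped. CORO1A, the most abundant, was at 45.5, 107 and 32.4 CPM in Direct-78 and 46.0, 141, 538 and 94.4 CPM in S3-78 (log2 fold change -1.74, SE 0.87, edgeR quasi-likelihood test, Benjamini-Hochberg adjusted p = 0.235). LTB, lymphotoxin beta, had no count in Direct-78 and was at 24.002, 7.58, 145 and 3.05 CPM in S3-78, at least 37.3-fold lower, or 10.1-fold without mouse 59, or 22.2-fold without mouse 64 (edgeR quasi-likelihood test, Benjamini-Hochberg adjusted p = 0.0172). LTB lost its edgeR call without mice 64 (adjusted p = 0.0665) and 66 (0.0589), and over 19 alternatives its adjusted p ran from 0.00177 to 0.681. LTB was at 27.02, 48.9 and 5.14 CPM in mice 61, 62 and 63 (log2 fold change with all 78 libraries -1.28). Of the defining markers, CD3E is not on the panel, PTPRC had 6, 19 and 0 counts in Direct-78 and 67, 122, 226 and 27 in S3-78, and CD79A 39, 14 and 14 in Direct-78 and 4, 26, 82 and 22 in S3-78, which overlapped. Their part in the interferon and complement results was not tested.

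Neutrophil markers gave 1 call of 6 tested, FPR1, with 4 values below 0, a share near that of all genes, a median of -1.22, or -0.95 relative to all genes and sums of 199, 108 and 185 CPM in Direct-78 and 401, 275, 1232 and 433 CPM in S3-78, in which every Direct-78 library was below every S3-78 library. FPR1, a chemotaxis receptor, had no count in Direct-78 and was at 9.19, 27.9, 11.7 and 19.8 CPM in S3-78, at least 14.7-fold lower, or 8.76-fold without mouse 64 (edgeR quasi-likelihood test, Benjamini-Hochberg adjusted p = 0.0233). FPR1 lost its edgeR call without mice 64 (adjusted p = 0.0894) and 66 (0.0745), and over 19 alternatives its adjusted p ran from 0.00615 to 0.873. FPR1 was at 30.02, 22.2 and 0 CPM in mice 61, 62 and 63 (log2 fold change with all 78 libraries -0.47). LCN2, the most abundant and also an acute phase gene of hepatocytes, was at 9.88, 47.2 and 0 CPM in Direct-78 and 351, 86.2, 713 and 270.3 CPM in S3-78, without overlap (log2 fold change -4.23, SE 1.90, edgeR quasi-likelihood test, Benjamini-Hochberg adjusted p = 0.178). The defining markers S100A8 and S100A9 were outside the genes tested and had 7, 0 and 0 counts and 0 counts throughout in Direct-78, and 0, 0, 8 and 17 and 16, 0, 7 and 3 counts in S3-78. CCR2, the receptor that recruits monocytes, chosen after its values were seen, had no count in Direct-78 and was at 0, 0.399, 104 and 9.90 CPM in S3-78, at least 22.9-fold lower, or 2.01-fold without mouse 59, or 13.6-fold without mouse 64 (edgeR quasi-likelihood test, Benjamini-Hochberg adjusted p = 0.0148), with most of its counts in mouse 59. CCR2 lost its edgeR call without mice 59 (adjusted p = 0.112), 64 (0.0598) and 66 (0.0511), and over 19 alternatives its adjusted p ran from 0.00180 to 0.720. CCR2 was at 0, 65.0 and 27.4 CPM in mice 61, 62 and 63 (log2 fold change with all 78 libraries -0.98).

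Hepatocyte markers were present in all 7 libraries. Of 13 tested, 0 passed the edgeR threshold in either direction, 5 values were above 0 and 8 below, the median was -0.49, or -0.23 relative to all genes, and sums were 46874, 62318 and 60679 CPM in Direct-78 and 75369.6, 90709, 65343 and 59227 CPM in S3-78. APOE, the most abundant, was at 17970.4, 19614 and 24483 CPM in Direct-78 and 15572, 26781, 18296 and 16678 CPM in S3-78 (log2 fold change 0.10, SE 0.34, edgeR quasi-likelihood test, Benjamini-Hochberg adjusted p = 0.908). ALB is not on the panel, and the defining markers TTR, APOA1 and HNF4A had counts in every library, the lowest being 186 for HNF4A in mouse 66. Stellate cell and fibroblast markers, 10 tested with no call in edgeR, had a median of -0.48, or -0.21 relative to all genes and sums of 323, 228 and 203 CPM in Direct-78 and 184, 224, 500.3 and 416 CPM in S3-78. COL1A1, their most abundant member and the main fibrillar collagen, was at 27.7, 101 and 28.4 CPM in Direct-78 and 21.4, 14.8, 134 and 122 CPM in S3-78 (log2 fold change -0.48, SE 0.75, edgeR quasi-likelihood test, Benjamini-Hochberg adjusted p = 0.790), while COL3A1 had 0 counts in mouse 65. Cholangiocyte markers, 6 tested with no call in edgeR, had a median of 1.11, or 1.37 relative to all genes and sums of 499, 51.3 and 269 CPM in Direct-78 and 269, 86.6, 547 and 84.5 CPM in S3-78. KRT19 counts were 234, 6 and 59 in Direct-78 and 35, 13, 49 and 6 in S3-78, KRT7 had 0 counts in mouse 65, and CDH1, the most abundant member, was at 108, 0 and 93.2 CPM in Direct-78 and 186, 32.7, 354 and 38.1 CPM in S3-78 (log2 fold change -1.18, SE 0.70, edgeR quasi-likelihood test, Benjamini-Hochberg adjusted p = 0.342).

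Endothelial markers, 9 tested with no call in edgeR, had a median of -0.21, or 0.05 relative to all genes, or -0.07 with members at 0 placed at their bound or left out, and sums of 369.6, 389 and 261 CPM in Direct-78 and 574, 775, 355 and 439 CPM in S3-78. CLEC1B, most abundant, was at 163, 293 and 77.03 CPM in Direct-78 and 389, 590.02, 209 and 286 CPM in S3-78 (log2 fold change -1.05, SE 0.46, edgeR quasi-likelihood test, Benjamini-Hochberg adjusted p = 0.160), and PECAM1 had 0 counts in every library but mouse 56, which had 6. Erythroid markers, 5 tested with no call in edgeR, had a median of -0.34, or -0.07 relative to all genes and sums of 802, 1086 and 678 CPM in Direct-78 and 681, 677, 239 and 585 CPM in S3-78. HBA-A2, an alpha globin and the most abundant, was at 703, 1003 and 547 CPM in Direct-78 and 667, 587, 188 and 354 CPM in S3-78 (log2 fold change 0.74, SE 0.72, edgeR quasi-likelihood test, Benjamini-Hochberg adjusted p = 0.621), while HBA-A1 had 0 counts in Direct-78 and 6, 0, 12 and 14 in S3-78. Exocrine pancreas markers, 9 tested with no call in edgeR, had a median of -0.67, or -0.40 relative to all genes and sums of 490.1, 242 and 312 CPM in Direct-78 and 366, 136, 103 and 157 CPM in S3-78. ZG16, the most abundant and a zymogen granule protein, was at 404, 0 and 269 CPM in Direct-78 and 44.9, 0, 60.9 and 10.7 CPM in S3-78 (log2 fold change 2.94, SE 2.01, edgeR quasi-likelihood test, Benjamini-Hochberg adjusted p = 0.419), and it had no count in mice 56 and 65. Skeletal muscle markers, 6 tested with no call in edgeR, had a median of -0.46, or -0.19 relative to all genes and sums of 48.4, 14.8 and 60.8 CPM in Direct-78 and 173, 66.3, 76.8 and 39.6 CPM in S3-78. ACTA1, skeletal actin and most abundant there, was at 0, 13.5 and 0 CPM in Direct-78 and 93.5, 28.7, 24.4 and 7.62 CPM in S3-78 (log2 fold change -3.16, SE 1.502, edgeR quasi-likelihood test, Benjamini-Hochberg adjusted p = 0.206), while MYLPF had 0 counts in mouse 65 and TNNI2 in mice 65 and 66.

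Tumour and growth genes had no call in the reported edgeR fit. Of 9 hepatocellular tumour markers 0 passed in edgeR with 2 values above and 7 below 0, and the median was -2.15, or -1.88 relative to all genes, but -0.64 with members at 0 in Direct-78 placed at their bound or left out. AFP, alpha-fetoprotein, the fetal liver protein that many hepatocellular tumours make again, was at 30.6, 22.9 and 0 CPM in Direct-78 and 1952, 28.7, 814 and 10.7 CPM in S3-78. It was high in S3-78 mice 55 and 59 and overlapped between the groups. The AFP difference was a log2 fold change of -5.27, or -5.01 relative to all genes (SE 1.70, edgeR quasi-likelihood test, Benjamini-Hochberg adjusted p = 0.0531). AFP passed in 4 of 20 alternatives: DESeq2 with or without independent filtering (Benjamini-Hochberg adjusted p = 0.00676) and edgeR without mouse 59 (0.0490) or mouse 60 (0.0398). Cell cycle and proliferation genes, 41 tested with no call, had 24 values above and 17 below 0 and a median of 0.31, or 0.58 relative to all genes. Immediate-early genes had no call either (13 tested, 5 above and 8 below 0, median -0.25, or 0.01 relative to all genes). Collagens, likewise without a call, had 9 of 10 values below 0 and a median of -0.86, or -0.59 relative to all genes. CTNND1, a catenin of cell junctions, was at 4389, 2873 and 3739 CPM in Direct-78 and 7107, 4462, 6691 and 5861 CPM in S3-78, without overlap (log2 fold change -0.72, SE 0.51, edgeR quasi-likelihood test, Benjamini-Hochberg adjusted p = 0.438). CEBPB, a transcription factor of the acute phase, was at 26317, 20609 and 16909.7 CPM in Direct-78 and 32211, 16699.7, 14576 and 17634 CPM in S3-78 (log2 fold change 0.07, SE 0.61, edgeR quasi-likelihood test, Benjamini-Hochberg adjusted p = 0.965). SDPR, a caveolar protein, was at 113, 101 and 28.4 CPM in Direct-78 and 201, 143, 106 and 99.0 CPM in S3-78 (log2 fold change -0.76, SE 0.41, edgeR quasi-likelihood test, Benjamini-Hochberg adjusted p = 0.291). DPM1, a mannosyltransferase subunit, was at 256, 348 and 401 CPM in Direct-78 and 111, 229, 512 and 218 CPM in S3-78 (log2 fold change 0.32, SE 0.48, edgeR quasi-likelihood test, Benjamini-Hochberg adjusted p = 0.781).

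Among metabolic and stress lists without an edgeR call, unfolded protein response genes stood to 1 side: 19 of 20 values were below 0 with TMM and 18 with RLE or upper-quartile factors, with a median of -0.63, or -0.36 relative to all genes. Cholesterol biosynthesis and sterol control had 17 of 19 values below 0 with TMM, 16 with RLE and 15 with upper-quartile factors, and a median of -0.53, or -0.26 relative to all genes. EBP, a sterol isomerase of that list, lay above its list without overlap and was at 53.4, 109 and 50.0 CPM in Direct-78 and 7.15, 33.9, 41.9 and 17.5 CPM in S3-78 (log2 fold change 1.49, SE 0.67, edgeR quasi-likelihood test, Benjamini-Hochberg adjusted p = 0.180). Bile acid genes (12 tested, 4 above and 8 below 0, median -0.57, or -0.30 relative to all genes) and cytochrome P450 genes of xenobiotic metabolism (21 tested, 8 above and 13 below 0, median -0.30, or -0.03 relative to all genes) had no call. Conjugation and hydrolysis enzymes (28 tested, 18 above and 10 below 0, median 0.24, or 0.50 relative to all genes) and aldehyde and alcohol dehydrogenases (8 tested, 6 above and 2 below 0, median 0.28, or 0.55 relative to all genes) had none either. NRF2 antioxidant genes, 29 tested, shared the call of ME1, and their median was 0.13, or 0.40 relative to all genes. Glutathione S-transferases (10 tested, 5 above and 5 below 0, median -0.15, or 0.12 relative to all genes) had no call. Amino acid and urea cycle enzymes (12 tested, 5 above and 7 below 0, median -0.09, or 0.18 relative to all genes) and tyrosine catabolism (4 tested, 2 above and 2 below 0, median -0.08, or 0.19 relative to all genes) were without calls. Female-biased liver genes (6 tested, 2 above and 4 below 0, median -0.70, or -0.43 relative to all genes) had no call, and male-biased genes (13 tested, 6 above and 7 below 0, median -0.21, or 0.05 relative to all genes) shared that of C8A. For male-biased genes 7 of 13 were above 0 with RLE or upper-quartile factors. Clock genes (5 tested, 2 above and 3 below 0, median -0.40, or -0.14 relative to all genes) had no call. Placing members at 0 in Direct-78 at their bound, or leaving out those without one, left the median of every list as given to 2 decimals except those of the tumour, endothelial and cell cycle lists, the last being 0.36.

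**Figure D5:**
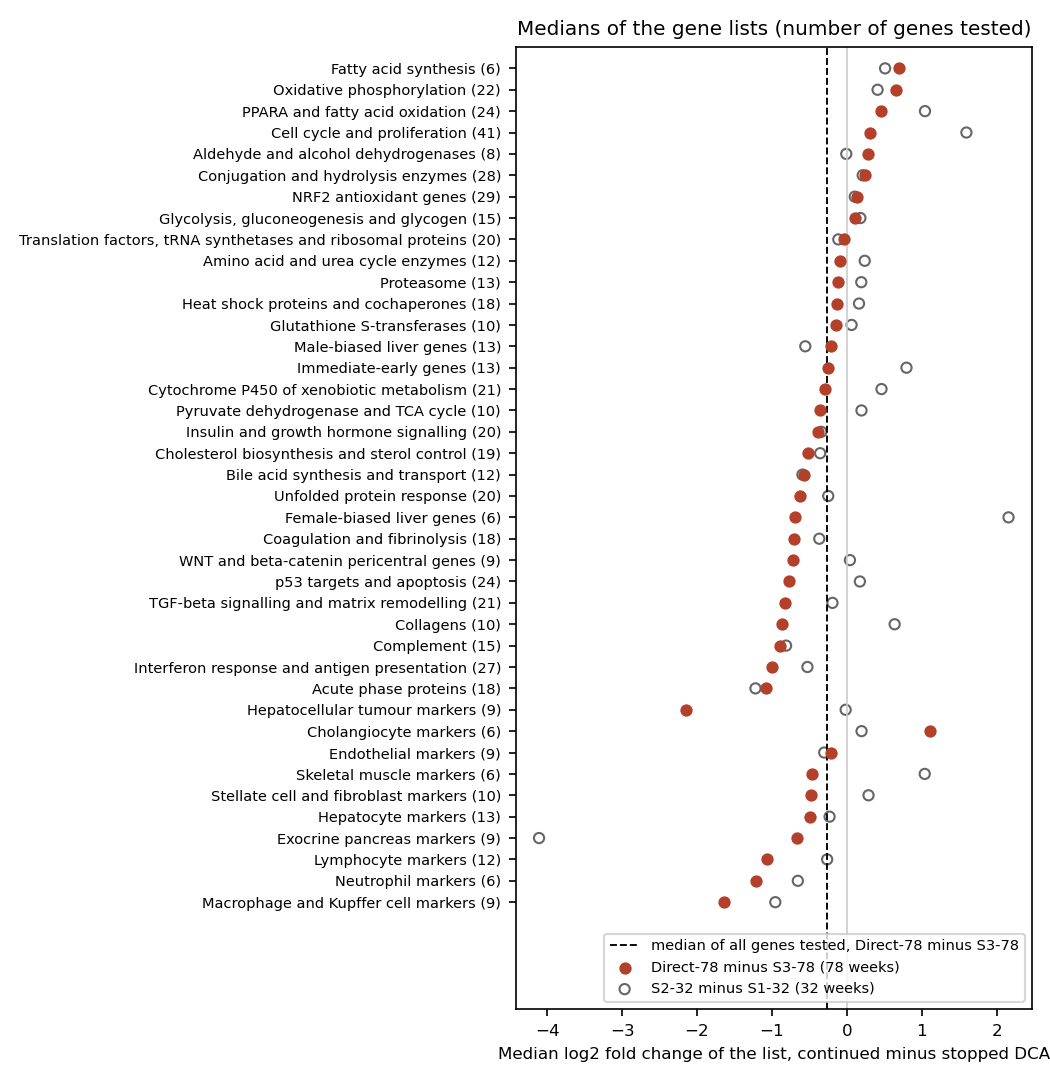
Median log2 fold change (horizontal axis) of each list with at least 6 genes tested (vertical axis, number of genes in brackets) for Direct-78 minus S3-78 (red) and S2-32 minus S1-32 (open circles), with a dashed line at the median of all genes for the former, -0.27. Macrophage markers lie at -1.64 and oxidative phosphorylation at 0.66 in Direct-78 minus S3-78.

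Continued and stopped DCA were also compared at 32 and 57 weeks, in libraries that the 78-week comparison does not share. S2-32 mice drank DCA for 32 weeks and S1-32 mice for 10 weeks followed by 22 weeks of water, 6 kept libraries each. S3-57 mice drank DCA for 57 weeks and S1-57 mice for 10 weeks followed by 47 weeks of water, 5 and 6 kept libraries. S2-32 minus S1-32 gave 78 genes (3.54%), 47 higher and 31 lower, and S3-57 minus S1-57 gave 0 in edgeR, with 111 at an unadjusted p under 0.05 and 7 in DESeq2. The number at 32 weeks ran from 27 to 74 with each library left out in turn. Of the 111 genes at 78 weeks and the 78 at 32 weeks 5 were shared (4.50% and 6.41%), 4 of them in the same direction. These shares were near those called over all genes, 3.54% at 32 weeks and 5.03% at 78 weeks. Over all genes the Spearman correlation of the 78-week log2 fold changes was 0.244 with those at 32 weeks and -0.125 with those at 57 weeks. The PPARA list had a median of 1.04 at 32 weeks, 0.45 at 78 weeks and -0.19 at 57 weeks. At 32 weeks ACADM differed by 1.02 (SE 0.30, adjusted p = 0.0410) in edgeR's quasi-likelihood test with Benjamini-Hochberg adjustment, CYP4A14 by 9.73 (SE 2.13, adjusted p = 0.00421), ACAA1B by 4.90 (SE 0.91, adjusted p = 0.00111) and LRG1 by -3.17 (SE 0.62, adjusted p = 0.00125). CPT1B, called lower at 78 weeks, was the shared gene of opposite direction, at 2.91 (SE 0.77, adjusted p = 0.0234) in the same edgeR quasi-likelihood test. The acute phase list had medians of -1.22 at 32 weeks and 0.12 at 57 weeks, and macrophage markers -0.96 and 0.39.

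The difference between the change at 78 weeks and the change at 32 weeks was tested in the same edgeR fit at the adjusted p alone. It passed for 39 genes (1.77%), 1 above 0 and 38 below, and 29 of the 39 were among the 111. The number ran from 24 to 82 with each library left out, and DESeq2 gave 68 and voom 120. With all 78 libraries edgeR gave 0, with 158 at an unadjusted p under 0.05, against 366 in the reported fit. FABP2 was the gene above 0 in that fit: its 32-week change was -0.20 (SE 0.45, adjusted p = 0.871) and the difference of the changes 2.89 (SE 0.76, adjusted p = 0.0266) (edgeR quasi-likelihood test, Benjamini-Hochberg). For PSMD4 the difference was -2.99 (SE 0.69, adjusted p = 0.0127) and for SMAD5 -1.86 (SE 0.45, adjusted p = 0.0141) in the same Benjamini-Hochberg adjusted edgeR test. FABP2 did not pass this test without S3-78 mouse 55 (adjusted p = 0.0780), S3-78 mouse 56 (0.0839), S3-78 mouse 60 (0.0610), Direct-78 mouse 66 (0.0919), S1-32 mouse 19 (0.0673) and S2-32 mouse 39 (0.0596), after thinning (0.0564), with genes of at least 30 CPM (0.0662) or with all 78 libraries (0.527). PSMD4 did not pass it without S3-78 mouse 55 (adjusted p = 0.0564), with genes of at least 30 CPM (0.0508) or with all 78 libraries (0.369). SMAD5 did not pass it without S3-78 mouse 55 (adjusted p = 0.0556), after thinning (0.0564), with genes of at least 30 CPM (0.0508) or with all 78 libraries (0.756). For ACADM, CYCS and LRG1 the difference of the changes did not pass (edgeR quasi-likelihood test, Benjamini-Hochberg adjusted p = 0.701, 0.680 and 0.966). CASP2, SMAD3, CPT1B, LTB and MX1, at 0 or 1 count over Direct-78, also passed, without a size. With each library left out in turn CASP2, SMAD3 and CPT1B kept the edgeR pass, LTB lost it without any 1 of mice 20, 21, 22, 39, 59, 64, 65 and 66 (adjusted p = 0.0508 to 0.0951), and MX1 lost it without any 1 of mice 20, 22, 23, 38, 39, 40, 56, 59, 60, 64, 65 and 66 (adjusted p = 0.0524 to 0.101). LTB also did not pass with RLE factors (0.0566), all genes with a count (0.0559), log2 total count (0.0583) or detected genes (0.0902) as a covariate, after thinning (0.0566) or in voom (0.126). MX1 also did not pass with RLE (0.0566) or upper-quartile factors (0.0523), all genes with a count (0.0571), edgeR's expression filter (0.0502), only the groups compared (0.100), detected genes as a covariate (0.0609), after thinning (0.112) or in voom (0.328).

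In mouse genome build GRCm38, by GENCODE vM21 annotation, the genes at the centre of these results lie on several chromosomes: ACADM at chr3:153922357-153944632, FABP2 at chr3:122895072-122899506, CYCS at chr6:50562563-50566538, ME1 at chr9:86581371-86695953, LRG1 at chr17:56119678-56122001, ITIH1 at chr14:30929180-30943289, HC at chr2:34983331-35061438, C3 at chr17:57203970-57228136, SMAD3 at chr9:63646767-63757994 and NOTCH2 at chr3:98013527-98150361.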

How the data were processed

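The deposited count table holds raw read counts per probed gene, which the authors made by aligning reads to the probe sequences, and per the submitters' processing notes this used Bowtie, genome mm10 and Partek 10.0.22.0524, with DESeq2 for their own tests. The deposited normalized and filtered tables hold a signal in which, as the values show, the authors added 1 to the count and divided it by a single factor for each library. They served here only to choose the 68 kept libraries and the 2205 filtered genes.

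Raw counts of these 68 libraries were fitted with edgeR 4.0.16 in R 4.3.3 (TMM factors, 13 group means, quasi-likelihood test, 2-sided, Benjamini-Hochberg over 2205 genes). DESeq2 1.42.0 and limma 3.58.1 served as alternatives, and Python 3.11.15 with pandas 2.3.3 and matplotlib 3.10.9 made tables and figures. CPM values are scaled with TMM factors. The statistics were tested on simulated data. Changes were simulated only in genes above a minimum level, with the same spread per gene in every group. Calls of genes with few or no counts in Direct-78, and unequal spread between groups, were thus not covered. The exact permutation test doubles the smaller tail.

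Genes were named by rule: up to 10 called genes with the largest rise and up to 10 with the largest fall, without overlap and at 30 CPM or more on average in 1 group; up to 2 called genes with the lowest adjusted p on each of 33 function lists; the most abundant and up to 3 called members of each of 10 cell type lists; and SDPR, CTNND1, EBP, IRS1, COL1A1, CEBPB, C9, AFP and DPM1. Some genes that meet the rule are not reported here. Other genes are given as chosen after their values were seen. Members and lists were chosen with earlier results of these data known. The lists were written from general knowledge, and genes may stand on more than 1. Probes of near-identical paralogs (the MUP, GST, SAA and CYP4A families) may not tell them apart. Alternatives were other factors, other gene filters, all 78 libraries, only the groups compared, other tools, the adjusted p alone, depth or detected genes as a covariate, thinning and leaving out each library.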

Additional observations from a re-analysis of the deposited data

Results flagged for a closer look

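In S3-78, the group of 4, 79 sets of values were checked for a library far from the others by Dixon's criterion at the 95% level, and 8 had one. The criterion's rate of 1 in 20 holds for independent, normally distributed values. These sets share the same 4 libraries, and some genes were chosen after their values were seen. The 8 can therefore not be set against that rate. Mouse 59 accounted for 6: CLU at 34962 CPM, MPEG1 at 3795 CPM, LTB at 145 CPM, CCR2 at 104 CPM and the summed neutrophil markers at 1232 CPM were above the other 3 mice, and ETFB at 529 CPM was below them. C1QA was high in mouse 56 at 75.4 CPM and SAA1 high in mouse 60 at 36110.0 CPM. Direct-78, with 3 libraries, was not checked this way.

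The change from stopped to continued DCA differed between 78 and 32 weeks by the test of the difference in the reported edgeR fit for 8 named genes. On the log2 scale the differences were 2.89 for FABP2, -2.99 for PSMD4 and -1.86 for SMAD5. The fitted values -6.68 for CASP2, -9.83 for CPT1B, -9.89 for LTB, -7.82 for MX1 and -7.99 for SMAD3 come from genes with at most 1 count over Direct-78 and give no size.

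The S3-78 libraries that the authors left out held values above every kept S3-78 library in genes called higher in Direct-78, with all 78 libraries scaled together. Mouse 57 had 3686 CPM of ACADM, 662 CPM of CYCS, 1425 CPM of FABP2, 199 CPM of MRPS17 and 42.8 CPM of USP14. Mouse 58 had 2852 CPM of ACADM, 567 CPM of CYCS, 413 CPM of MRPS17, 41.1 CPM of USP14 and 17.97 CPM of GPM6B. For USP14 and for MRPS17 of mouse 57 the margin was small, the highest kept S3-78 values being 40.8 and 192 CPM.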

How the results depend on the processing

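Log2 fold changes of the named genes gave 1325 values under alternatives: 954 kept direction and side of the threshold, 309 lost the call, 39 gained one and 23 turned direction. The cause was not tested.

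Direct-78 minus S3-78 (111 genes) gave 0 with only the groups compared and with all 78 libraries, 174 in DESeq2 with and without independent filtering, 178 in voom, 31 with log2 total count, 64 after thinning and 47 with genes of at least 30 CPM, an alternative chosen after seeing the data, and 58 to 185 with 1 library left out. S2-32 minus S1-32 (78) gave 50 with all genes with a count, 12 with all 78 libraries, 446 with its own groups, 147 in DESeq2 either way, 555 in voom and 15 with log2 total count, and 27 to 74 with 1 library left out. S3-57 minus S1-57 (0) gave 7 in DESeq2 either way and 0 to 2 with 1 library left out. The difference of changes (39) gave 21 with RLE, 23 with all genes with a count, 0 with all 78 libraries, 68 with its own groups, 68 in DESeq2 either way, 120 in voom, 60 with detected genes as a covariate, 19 after thinning and 1 with genes of at least 30 CPM, and 24 to 82 with 1 library left out.

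Turned directions were few among called genes: CRYAB 0.75 and GBP6 0.43 with all 78 libraries. Among genes without a call, C9 turned to 0.13 with RLE and in DESeq2 either way, 0.16 with upper-quartile factors, 0.30 with log2 total count, 0.38 with detected genes, 0.10 with genes of at least 30 CPM, and 0.0356, 0.18 and 0.28 without mice 59, 60 and 65, in a range of -0.54 to 0.28 with 1 library left out. CEBPB turned to -1.06 with log2 total count, -0.0930 with detected genes, and -0.06 and -0.11 without mice 59 and 64. With detected genes APOE turned to -0.0525, COL1A1 to 0.37 and CORO1A to 0.00858. IRS1 was -0.00924 with all 78 libraries, CDH1 0.0474 in voom, COL1A1 0.000886 without mouse 59 (range -1.27 to 0.000886) and APOE -0.00233 without mouse 66. No paired analysis was possible because each mouse has its own number.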
